A study of Mus musculus with 6 samples.

Results

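The heat shock chaperone genes Hspa1a, Hspa1b, Hspa8, Hsp90aa1, Hsp90ab1, Hspb1, Dnajb1, Hsph1, Hspd1 and Hspe1 were followed in mouse liver, in animals lacking Gα12 and in wild-type (WT) animals. Gα12, the product of Gna12, is a G protein α subunit that relays signals from cell surface receptors, and the Gα12-deficient mice are called KO below. Every array probe whose transcript accession belongs to 1 of these genes in RefSeq was taken, a rule that uses no measured value, although the set of genes was chosen with earlier results of these data known. This gave 14 probes for 9 of the 10 genes, out of 55681 probes on the array and 20284 genes named by accession. Hspa1b had no probe of its own. All 14 probes passed the filter on dim signals, which asked for a signal well above background on 3 or more of the 6 arrays, and 13 of them were well above background on all 6. The exception was the Hspa1a probe, which passed through all 3 KO arrays and 1 WT array.

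The KO group held 3 livers and the WT group 3 livers, each taken as 1 animal and hybridised to 1 array with 1 colour. All 6 mice were males of 8 weeks, on a background given as 95% C57BL/6 with 129/Sv as the other strain, kept on a chow diet and fasted overnight. How the Gna12 allele was made, and in which cells it is lost, is not stated in the labels. The design sets livers without Gα12 beside livers that have it. A level below is the log2 signal of a probe after subtracting the 75th percentile of its array, and a difference is KO minus WT on that log2 scale. Levels of different probes are not on a common scale, so each probe is compared only with itself across livers. In bulk liver, fewer cells of a type and less RNA per cell cannot be told apart.

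Heat shock proteins are chaperones that bind unfolded proteins and help them fold, keep them soluble or pass them to degradation. The HSP70 proteins bind and release clients in cycles driven by ATP, with J-domain proteins such as DNAJB1 starting the cycle and HSP110 proteins such as HSPH1 exchanging the nucleotide. HSP90 proteins act later, on kinases and steroid receptors among others, small heat shock proteins such as HSPB1 hold clients without ATP, and HSPD1 with its lid HSPE1 forms a folding chamber in mitochondria. Heat and other protein stress raise many of these genes through the factor HSF1, which binds repeats of the letters GAA and TTC in promoters, while Hspa8 and Hsp90ab1 are made at high levels without stress.

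The WT livers were not alike, and this touches every value below. Across the 23132 kept probes, WT replicates 1 and 2 correlated with the KO arrays at 0.869 to 0.930, and WT replicate 3 at 0.966 to 0.982. The median difference over the 12297 genes with a kept probe was -0.49. The 3 KO arrays lay in 1 row of the slide and the 3 WT arrays in the other, so a difference between rows and one between genotypes cannot be told apart. Of the 7 Gapdh probes, which read 1 glycolytic enzyme gene, the spread from the lowest to the highest was 4.82, 4.87 and 4.36 on KO replicates 1 to 3, and 9.58, 7.79 and 4.01 on WT replicates 1 to 3. The part of this in the differences below was not tested. Values are therefore given against all WT livers and against WT replicate 3 alone. The Gna12 probe had levels of -4.91, -4.62 and -3.47 in KO livers, against -3.48, -4.55 and -0.89 in WT livers. It was well above background on WT replicate 3 alone, and WT replicates 1 and 2 lay within the range of the KO livers. It therefore does not check the labels of WT replicates 1 and 2, and where the probe lies relative to the altered part of the gene is not stated in the labels.

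The chaperone genes did not move as a block between genotypes. No probe passed limma's test over all kept probes at an adjusted p of 0.05, either among the 14 (0 of 14) or on the whole array (0 of 23132, 0.0%). Between genotypes, 3 of 14 chaperone probes had an unadjusted p below 0.05 with the higher level in KO, against 5.62% of all probes. They were 1 each of Hspa1a, Hspa8 and Hsph1. Hspa1a passed the filter on dim signals through the KO livers, where it is high, so its place in this count is no support. The Hspa8 probe was its probe 1, and the other Hspa8 probes had differences of -0.13 and 0.02. None of the 14 had an unadjusted p below 0.05 with the lower level in KO, against 15.4% of all probes. The levels of the KO livers lay wholly above those of the WT livers for Hspa1a, Hspb1 and Hsph1, 3 of 9 genes, against 4.42% of all genes. Hspa1a is no support in that count either, and the other 8 genes gave 2. They lay wholly below for 0 of 9 genes, against 21.1% of all genes. The median difference over the 9 genes, each taken by its probe with the highest mean level, was -0.41, beside -0.49 over all genes.

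**Figure D1:**
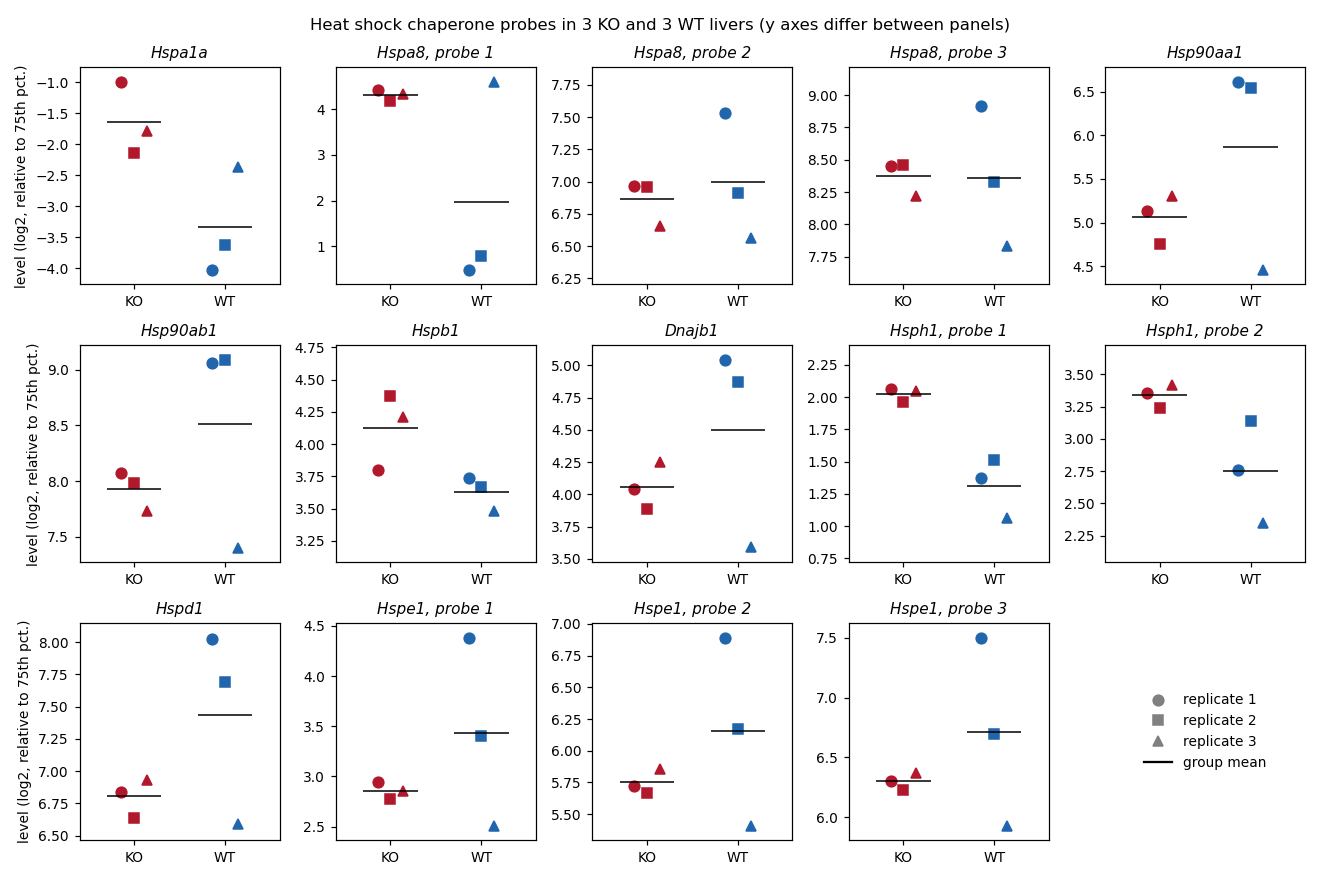
Levels (log2 signal minus the array's 75th percentile) of all 14 probes of 9 heat shock chaperone genes in 3 KO and 3 WT livers, with replicates as symbols and group means as bars. KO livers sit above all WT livers for Hspa1a, Hspb1 and both Hsph1 probes, and WT replicates 1 and 2 sit above all KO livers for Hsp90aa1, Hsp90ab1, Dnajb1, Hspd1 and Hspe1.

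Hspa1a encodes a stress-inducible cytosolic HSP70. Its probe had levels of -1.0, -2.14 and -1.79 in KO livers, against -4.02, -3.63 and -2.37 in WT livers. All KO livers were above all WT livers, but the highest WT liver, replicate 3, lay only 0.23 below the lowest KO liver. The mean was -1.64 ± 0.58 in KO livers and -3.34 ± 0.86 in WT livers (SD, n = 3 each). The difference of 1.69 (SE 0.52, 95% interval 0.48 to 2.90) did not pass limma's test (adjusted p = 0.235). The signal was well above background in all KO livers but in WT replicate 3 alone among the WT livers, and the size of the difference rests on WT values that are mostly not above background. Against WT replicate 3 alone it was 0.72 (SE 0.51). Without WT replicate 3 no WT array was well above background, so no size or test is given for that comparison. With normexp background correction the difference was 0.78.

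Hspa1b, the other inducible HSP70 gene, lies beside Hspa1a on chromosome 17 and is a near copy of it. The Hspa1a probe may therefore read both, and its signal is uncertain as a measure of Hspa1a by itself. Their promoters are shown because they carry the same heat shock element. RefSeq windows of 300 bases (250 before and 50 after a start site, GRCm38.p6) were matched by symbol for 7 of the 10 genes, and not for Hspa8, Hsp90aa1 or Hsp90ab1. Of the 250 bases before the start site, 247 are the same in Hspa1a and Hspa1b at the same position. Capitals below mark matches to the heat shock letters GAANNTTC or TTCNNGAA. Each of these patterns reads the same on both strands, and 15.1% of all 32851 windows hold at least 1 of them.
Hspa1a (chr17:34972222-34972291, minus strand): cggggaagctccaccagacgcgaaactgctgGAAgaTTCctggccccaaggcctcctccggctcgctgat
Hspa1b (chr17:34959304-34959373, minus strand): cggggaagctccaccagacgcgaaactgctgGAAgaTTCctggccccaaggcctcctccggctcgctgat
The stretches run from base -135 to base -66 before the start site and are the same letter for letter. A match is a description of these letters and not a measured binding site.

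Hspa8 encodes HSC70, the constitutive cytosolic HSP70, and its 3 probes did not tell the same story. Probe 3, with the highest mean, had levels of 8.45, 8.46 and 8.22 in KO livers, against 8.92, 8.33 and 7.83 in WT livers. The groups overlapped, with WT livers both above and below all KO livers. Its difference was 0.02 (SE 0.37, 95% interval -0.84 to 0.88, limma adjusted p = 0.976). Probe 2 behaved alike, with 6.97, 6.96 and 6.66 in KO livers, against 7.53, 6.91 and 6.56 in WT livers, a difference of -0.13 (SE 0.36). Probe 1 did not. It had levels of 4.41, 4.17 and 4.33 in KO livers, against 0.49, 0.80 and 4.59 in WT livers. WT replicate 3 was the highest of all 6 livers on this probe, and WT replicates 1 and 2 were 4.10 and 3.79 below it.

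The difference of probe 1 was 2.34 (SE 1.0, limma adjusted p = 0.237), and against WT replicate 3 alone it was -0.29 (SE 0.21). The 3 Hspa8 probes thus spanned 2.48 in their differences. Among the 392 genes with at least 3 kept probes, 54 (13.8%) had a span at least as wide, and the median span was 1.28. Gapdh, with a span of 2.60, showed the same arrays apart: its probe 1 had levels of 5.69, 5.81 and 5.80 in KO livers, against 1.05, 2.57 and 5.99 in WT livers. Which part of the transcript each probe reads was not analysed here. The mean over the Hspa8 probes gave a difference of 0.74, which is carried by probe 1.

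**Figure D2:**
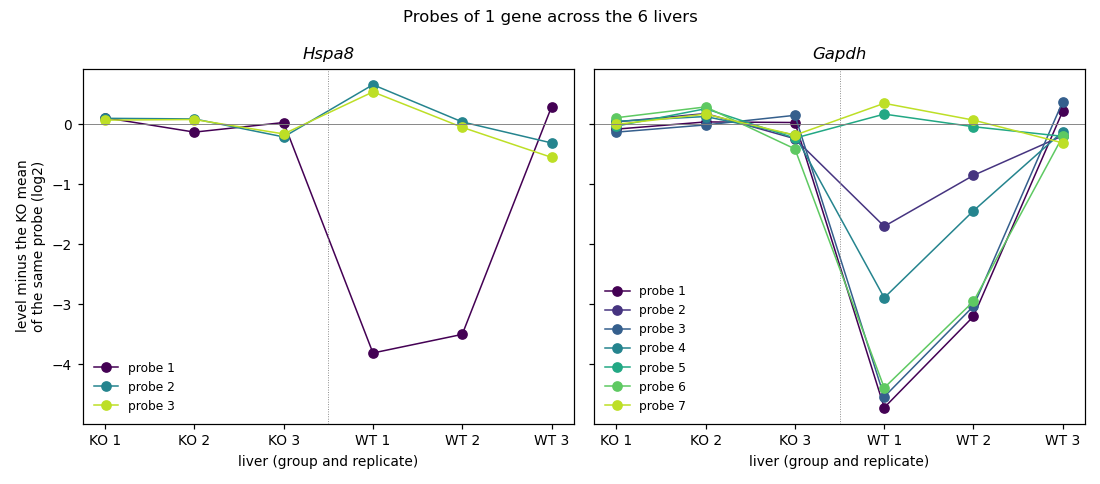
Level minus the KO mean of the same probe (log2) for the 3 Hspa8 probes and the 7 Gapdh probes, over the 3 KO and 3 WT livers. Hspa8 probe 1 lies 3.81 and 3.51 below the KO mean in WT replicates 1 and 2 and above it in WT replicate 3, while probes 2 and 3 show no such drop.

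The cytosolic HSP90 genes divided the WT livers rather than the genotypes. Hsp90aa1, the more inducible of them, had levels of 5.13, 4.75 and 5.31 in KO livers, against 6.61, 6.54 and 4.46 in WT livers. WT replicates 1 and 2 lay above every KO liver and WT replicate 3 below every KO liver. This is not particular to the HSP90 genes, as WT replicates 1 and 2 topped the other 4 livers for 59.2% of all genes. The mean was 5.06 ± 0.29 in KO livers and 5.87 ± 1.22 in WT livers (SD, n = 3 each), and the difference of -0.81 (SE 0.60, 95% interval -2.19 to 0.58) did not pass (limma adjusted p = 0.367). It was 0.60 (SE 0.30) against WT replicate 3 alone and -1.51 (SE 0.24) without WT replicate 3, so its sign depended on which WT livers were used.

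Hsp90ab1, the constitutive cytosolic HSP90, followed the same order. Its levels were 8.07, 7.98 and 7.73 in KO livers, against 9.06, 9.09 and 7.40 in WT livers. The KO livers again lay between WT replicate 3 and the other WT livers, but with quantile normalization WT replicates 1 and 2 no longer both topped the others. The difference was -0.59 (SE 0.50, 95% interval -1.76 to 0.57, limma adjusted p = 0.420), 0.52 (SE 0.23) against WT replicate 3 alone and -1.15 (SE 0.20) without it.

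Dnajb1 encodes the J-domain protein that hands clients to HSP70. It had levels of 4.04, 3.89 and 4.25 in KO livers, against 5.04, 4.87 and 3.59 in WT livers. WT replicate 3 was again lowest and WT replicates 1 and 2 were highest. WT replicates 1 and 2 topped the other 4 livers for 59.2% of all genes. The difference was -0.44 (SE 0.44, 95% interval -1.47 to 0.59, limma adjusted p = 0.494), 0.47 (SE 0.24) against WT replicate 3 alone and -0.90 (SE 0.21, limma adjusted p = 0.0164) without it. Without WT replicate 1 it was -0.17 (SE 0.46). No window of Dnajb1 held the heat shock letters.

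Hsph1, the HSP110 that recharges HSP70, had a pair of probes, and both separated the genotypes. Its probe 1 had levels of 2.06, 1.96 and 2.05 in KO livers, against 1.37, 1.51 and 1.06 in WT livers. Its probe 2 had levels of 3.36, 3.24 and 3.42 in KO livers, against 2.76, 3.14 and 2.35 in WT livers. On both probes all KO livers were above all WT livers, by at least 0.45 on probe 1 and by at least 0.10 on probe 2. The KO livers spanned only 0.11 and 0.18 on these probes.

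The difference was 0.71 (SE 0.30, 95% interval 0.01 to 1.42) for probe 1 and 0.59 (SE 0.33, 95% interval -0.18 to 1.36) for probe 2. Neither passed over all probes, with limma adjusted p-values of 0.237 and 0.276. Against WT replicate 3 alone the differences were 0.97 (SE 0.19) and 0.99 (SE 0.20), and without WT replicate 3 they were 0.59 (SE 0.18) and 0.39 (SE 0.21). The direction thus did not rest on a particular WT liver, although in the deposited matrix the groups overlapped on probe 2. Each promoter window of Hsph1 holds a longer 3-unit element, TTC then GAA then TTC with any 2 bases between units, just after the start site. This pattern or its reverse complement, GAA then TTC then GAA, occurs in 0.603% of all windows, and each match contains matches to the shorter patterns. The 30 bases around it, with the matched letters in capitals, run from base 7 to base 36 after the more downstream of its annotated starts.
Hsph1 (chr5:149636280-149636309, minus strand): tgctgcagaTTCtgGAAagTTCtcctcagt

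Hspb1, the small heat shock protein also called Hsp25 in mice, had levels of 3.80, 4.37 and 4.21 in KO livers, against 3.74, 3.67 and 3.48 in WT livers. All KO livers were above all WT livers, but KO replicate 1 cleared the highest WT liver by only 0.05. The mean was 4.13 ± 0.30 in KO livers and 3.63 ± 0.13 in WT livers (SD, n = 3 each). It was the only one of the 9 genes whose SD between livers was larger in KO than in WT. Over all genes the SD was larger in WT for 10514 of 12297. The difference of 0.49 (SE 0.32, 95% interval -0.24 to 1.23) did not pass (limma adjusted p = 0.314). It was 0.64 (SE 0.30) against WT replicate 3 alone and 0.42 (SE 0.24) without it. Its promoter window holds the pattern GAANNTTC at a pair of places, shown in capitals, within bases -138 to -69 before the start site.
Hspb1 (chr5:135887781-135887850, plus strand): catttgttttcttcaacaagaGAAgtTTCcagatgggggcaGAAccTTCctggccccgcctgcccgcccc

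Hspd1 and Hspe1, the genes of the mitochondrial chamber and its lid, lie head to head on chromosome 1 and ran in the same order across livers. Hspd1 had levels of 6.84, 6.64 and 6.93 in KO livers, against 8.02, 7.69 and 6.59 in WT livers. Hspe1, on the probe with the highest mean (probe 3), had 6.30, 6.23 and 6.37 in KO livers, against 7.50, 6.70 and 5.93 in WT livers. For both genes on these probes WT replicate 1 was highest, WT replicate 2 next and WT replicate 3 lowest. Within the KO group replicate 3 was highest and replicate 2 lowest. Hsp90aa1 and Dnajb1 had the same order of the 6 livers, so it was not particular to this pair. The other Hspe1 probes gave 2.94, 2.78 and 2.85 (probe 1) and 5.72, 5.67 and 5.86 (probe 2) in KO livers, against 4.38, 3.40 and 2.51 and 6.89, 6.17 and 5.41 in WT livers. All 3 Hspe1 probes therefore kept the same order of the WT livers, and their differences spanned only 0.17. On probe 1, unlike the others, KO replicate 1 was the highest KO liver.

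The difference was -0.63 (SE 0.43, 95% interval -1.62 to 0.37) for Hspd1 and -0.41 (SE 0.44, 95% interval -1.42 to 0.60) for Hspe1 probe 3. Neither passed, with limma adjusted p-values of 0.336 and 0.513. Against WT replicate 3 alone both were above 0, at 0.22 (SE 0.22) and 0.37 (SE 0.19). Without WT replicate 3 they were -1.05 (SE 0.21, limma adjusted p = 0.0112) for Hspd1 and -0.80 (SE 0.28, limma adjusted p = 0.0569) for Hspe1. Without WT replicate 1 they were -0.34 (SE 0.42) and -0.02 (SE 0.37), so their size rested on single WT livers. The annotated start of Hspe1 lies 216 bases from 1 start of Hspd1 and 95 bases from the other, on opposite strands. Between the first pair of starts lies a run of 4 alternating units, in which the 3-unit pattern matches at a pair of overlapping places. It is shown once, as read towards Hspe1, with the matched letters in capitals.
Hspe1 and Hspd1 (chr1:55088053-55088082, plus strand): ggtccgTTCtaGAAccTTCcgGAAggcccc
In all, 3 of the 7 genes with a window held the 3-unit pattern (Hsph1, Hspd1 and Hspe1) and 6 held a shorter pattern. The KO livers lay wholly above the WT livers for Hspa1a, Hspb1 and Hsph1 (against 4.42% of all genes), each of which held a pattern. They did not for Hspd1 and Hspe1, which held patterns too, nor for Dnajb1, which held none. Hspa1a passed the filter on dim signals through the KO livers, so its place is no support. As 6 of the 7 genes with a window held a pattern, these genes cannot show whether a pattern goes with separation. The part of these letters in the differences was not tested.

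**Figure D3:**
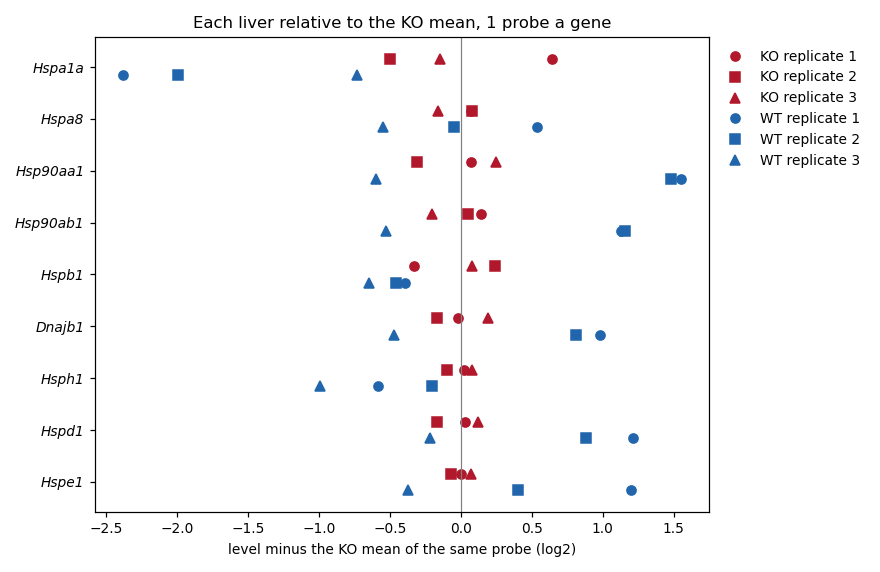
Level of each liver minus the KO mean of the same probe (log2), for the probe with the highest mean of each of 9 genes, with KO livers in red above WT livers in blue. On these probes WT replicate 3 lies left of all KO livers for every gene, by 0.22 (Hspd1) to 0.99 (Hsph1) from the KO mean. WT replicates 1 and 2 lie on either side.

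The WT livers thus placed the KO livers differently. In the median over the 9 genes, WT replicates 1, 2 and 3 lay 0.98, 0.40 and -0.55 from the KO mean, beside 0.82, 0.71 and 0.03 in the median over all genes. All 3 KO livers were above WT replicate 3 for 9 of 9 genes, against 26.8% of all genes. WT replicate 3 was the lowest of the 6 livers for 8 of 9, against 21.5%. These counts take 1 probe a gene: on Hspa8 probe 1 the KO livers (4.41, 4.17 and 4.33) lay below WT replicate 3 (4.59). Hspd1 cleared WT replicate 3 by only 0.05. Hspa1a passed the filter on dim signals through the KO livers, so its place in the 9 is no support. WT replicates 1 and 2 were both above the other 4 livers for 5 of 9 genes (Hsp90aa1, Hsp90ab1, Dnajb1, Hspd1 and Hspe1), against 59.2% of all genes. The median SD between livers was 0.17 in KO and 0.78 in WT over the 9 genes, and 0.19 and 0.65 over all genes. Without WT replicate 3, limma called 1 of the 9 genes higher in KO, against 11.5% of all genes. This was Hspa1a, which passed the filter through the KO livers and was well above background on neither remaining WT array, so the call is void. In the same fit limma called 4 of the 9 genes lower (Hsp90aa1, Hsp90ab1, Dnajb1 and Hspd1), against 50.6%. Most of the 12297 genes with a kept probe were thus called once this liver was left out. Against WT replicate 3 alone limma called 0 of 9, against 0.0% of all genes, and 1 (Hsph1) had an unadjusted p below 0.05 with the higher level in KO, against 2.72%. That fit has 1 WT liver, which is assumed to vary like the KO livers.

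The offset from WT replicate 3 moved with signal strength over the whole array. In the dimmest decile of genes the median of KO minus WT replicate 3 was -0.30, and in the brightest decile it was 0.16, with all KO livers above WT replicate 3 for 52.8% of those genes. Of the 9 chaperone genes, 4 lay in the brightest decile (Hspa8, Hsp90ab1, Hspd1 and Hspe1) and 2 in the next (Hsp90aa1 and Dnajb1). Hspd1, at 0.22, was within the middle 50% of the brightest decile (-0.05 to 0.36), and Hspe1, at 0.37, was at its edge. The other 7 lay above the middle 50% of their own decile. Hspa8 was above 88.0% of the genes of its decile, Hsp90ab1 above 86.6%, Hsp90aa1 above 95.3% and Dnajb1 above 91.5%. Hspb1 was above 97.6% of its decile, Hsph1 above 98.7% and Hspa1a above 93.4%. Hspa1a passed the filter on dim signals through the KO livers, so its place here is no support. Hspa8 is taken here by its probe 3, and on its probe 1 KO minus WT replicate 3 was -0.29. Most of the hepatocyte markers shared the offset. Of 9 measured, 7 were lowest in WT replicate 3, against 21.5% of all genes and 50.4% of the brightest decile. The median of KO minus WT replicate 3 over the 9 was 0.58, with 0.59 for albumin (Alb) but 0.04 for both Apoa1 and Cps1. The part of signal strength in the chaperone values was not tested.

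**Figure D4:**
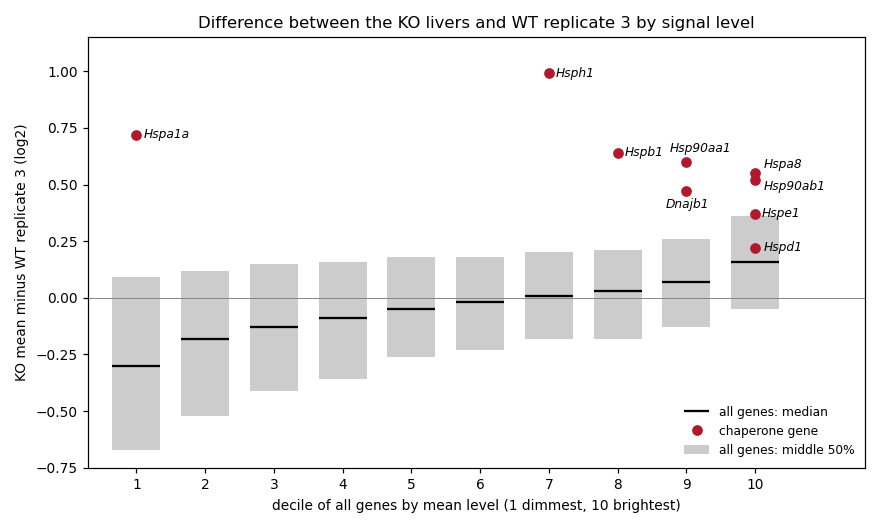
KO mean minus WT replicate 3 (log2) in deciles of all genes by mean level, with the median as a line and the middle 50% as a grey bar, and the 9 chaperone genes as red points. The median climbs over the deciles to 0.16 in the brightest, and Hsph1 (0.99) and Hspa1a (0.72) stand farthest above the bar of their decile. Hspa1a passed the filter on dim signals through the KO livers, so its place is no support.

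Scaling changed some of these counts. Each gene is again taken by its probe of highest mean, and Hspa1a, where counted, is no support. All 3 KO livers were above WT replicate 3 for 9 of 9 genes in the deposited matrix and with scaling to the median of the kept probes, against 25.4% and 32.2% of all genes. This held for 8 of 9 (not Hspd1) with quantile normalization and with normexp, against 25.4% and 30.4%. WT replicate 3 was lowest for 8 of 9 genes with scaling to the median (24.7% of all genes) but for only 3 of 9 with quantile normalization (17.6%). With quantile normalization WT replicates 1 and 2 topped the other livers for Hsp90aa1 alone, against 44.5% of all genes.

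The KO livers lay wholly above the WT livers for Hspa1a and Hspb1 under the 5 scalings tried, and for Hsph1 on probe 2 under each except the deposited matrix. With quantile normalization Hspa8 separated too, which made 4 of 9, against 6.9% of all genes. The count was 3 of 9 with scaling to the median (6.53% of all genes) and with normexp (4.94%), and 2 of 9 in the deposited matrix (3.83%). Each of these counts includes Hspa1a, which passed the filter on dim signals through the KO livers, so its place in them is no support. The median difference over the 9 genes was 0.15 with quantile normalization and -0.46 with normexp, beside -0.21 and -0.38 over all genes.

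Genes that work with these chaperones were counted from lists of 72 genes, of which 66 were measured. None passed limma's test with adjustment over every kept probe. At an unadjusted p below 0.05, 4 genes had the higher level in KO, against 3.98% of all genes, and 1 had the lower level, against 16.6%. Hsf2, a relative of HSF1 tied to development, was that 1 lower gene, with -0.22, 0.55 and 0.82 in KO livers, against 3.25, 2.51 and 0.68 in WT livers, where WT replicate 3 lay among the KO livers. Hsf1 itself had 1.14, 1.17 and 1.20 in KO livers, against 2.01, 1.65 and 0.98 in WT livers, a difference of -0.38 (SE 0.36). The KO livers lay between WT replicate 3 and the other WT livers for Hsf1. Over all genes, WT replicates 1 and 2 topped the other 4 livers for 59.2%, and WT replicate 3 was lowest for 21.5%. Bag3, an HSP70 co-chaperone gene and HSF1 target, had a difference of -0.30 (SE 0.39).

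Among 23 measured co-chaperone genes the median difference was -0.47, and 1 had an unadjusted p below 0.05. This was Stip1, which encodes HOP, the adaptor between HSP70 and HSP90. Stip1 had levels of 2.91, 3.03 and 2.69 in KO livers, against 1.36, 1.77 and 2.08 in WT livers. All KO livers were above all WT livers, and the difference was 1.14 (SE 0.33, limma adjusted p = 0.235), or 0.80 against WT replicate 3 alone. Dnajc7, Bag1 and Ppid, the next by p, had differences of -1.25, -0.92 and -0.81, with WT replicate 3 within 0.05 of the KO mean for each of them.

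The CCT/TRiC subunits, which form a ring that folds actin and tubulin, had a median difference of 0.06 over 8 genes. Cct6a had 2.50, 2.40 and 2.12 in KO livers, against -3.19, -0.15 and 1.58 in WT livers, a difference of 2.93 (SE 1.05), or 0.76 against WT replicate 3 alone. Only 2 of its WT arrays were well above background, so the first of these rests partly on background. The chaperones of the endoplasmic reticulum had a median of -0.22 over 12 genes, with 2 at an unadjusted p below 0.05. Of these, Pdia4, a protein disulphide isomerase gene, had 3.76, 3.34 and 3.52 in KO livers, against -2.83, -2.32 and 3.19 in WT livers, so that its difference of 4.19 (SE 1.43) was 0.35 against WT replicate 3 alone. Dnajb9, a J-domain gene of that compartment, had 3.13, 3.48 and 2.90 in KO livers, against 2.28, 2.40 and 2.21 in WT livers. Its difference of 0.88 (SE 0.31, limma adjusted p = 0.235) was 0.96 against WT replicate 3 alone, and its WT livers stood together below all KO livers.

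The other lists gave no gene at an unadjusted p below 0.05. The median difference was -0.63 over 8 mitochondrial chaperone and protease genes, -0.62 over 4 other HSP70 genes and -0.12 over 6 other small heat shock genes. In the last of these, Hspb8 had 4.68, 4.37 and 4.37 in KO livers, against -0.23, 2.60 and 4.45 in WT livers, with WT replicate 3 among the KO livers.

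**Figure D5:**
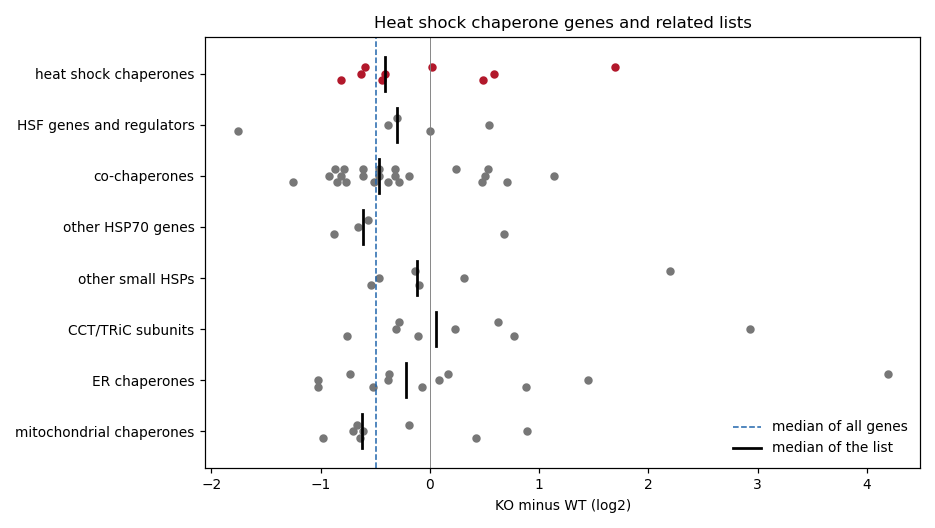
KO minus WT (log2) of the 9 heat shock chaperone genes (red) and of the genes of 7 related lists (grey), 1 probe a gene, with list medians as black bars and the median of all genes (-0.49) as a dashed line. The chaperone genes run from -0.81 (Hsp90aa1) to 1.69 (Hspa1a) around a median of -0.41.

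Markers of the cell types in liver were set beside these values. The summed linear level of 9 hepatocyte markers ran from 6710 to 8960 in KO livers and from 5520 to 10400 in WT livers, with none of the 9 at an unadjusted p below 0.05, and the labelled tissue thus had its defining genes. The sums overlapped between genotypes for 7 Kupffer cell and macrophage markers (67.5 to 77.6 in KO, 62.2 to 120 in WT), 8 endothelial markers (108 to 131 in KO, 123 to 161 in WT) and 6 erythroid markers (932 to 1060 in KO, 882 to 1890 in WT). They also overlapped for 4 neutrophil markers (48.1 to 84.7 in KO, 70.6 to 125 in WT), 5 lymphocyte markers (9.60 to 13.8 in KO, 9.11 to 13.1 in WT) and 3 cholangiocyte markers (2.09 to 2.87 in KO, 1.23 to 3.37 in WT). The sum of 7 stellate cell markers was 69.1 to 81.4 in KO livers and 89.6 to 153 in WT livers and did not overlap. These sums add probes that are not on a common scale, and the stellate sum is mainly that of Dcn (83.9% to 91.4% of the sum). Gene by gene, 2 of the 7 stellate markers (Lrat and Dcn) lay wholly below the WT livers in KO, against 21.1% of all genes, and Des had a difference of 1.28 (SE 0.72). Of the 8 endothelial markers 4 lay wholly below the WT livers in KO (Stab2, Clec4g, Fcgr2b and Ptprb), against 21.1% of all genes. The median of KO minus WT replicate 3 over the 8 was -0.35, beside -0.03 over all genes. The difference from all WT livers was above 0 for 3 of the 8 (Kdr, Tek and Pecam1). Of these, Kdr had 5.39, 5.52 and 4.22 in KO livers, against 2.14, 1.92 and 4.23 in WT livers. Markers not kept were Epcam, Krt7 and Cftr for cholangiocytes, Ly6g and Mpo for neutrophils, Cd3g, Cd79a and Cd79b for lymphocytes, Cd68 for macrophages, Reln for stellate cells, Tf for hepatocytes and Hbb-b1 for erythroid cells. The part of cell makeup in the chaperone values was not tested.

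Taking the probe of highest mean for each gene, the widest spread over the 6 livers was that of Hspa1a (SD 1.14), with 2 WT values not above background. Hspa8 probe 1 is not among these probes and spread more widely. The genes whose centred levels over the 6 livers lay closest to Hspa1a among 12296 others were Pgam2 (Euclidean distance 0.65), Fcgbp (0.76) and Septin6 (0.80). Pgam2, a muscle-type glycolytic enzyme gene, had -2.12, -3.05 and -2.08 in KO livers, against -4.91, -4.21 and -3.18 in WT livers. These are dim probes like that of Hspa1a, and with 6 livers the likeness is only a description.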

How the data were processed

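Liver RNA of 3 KO and 3 WT mice was read on 1-colour Agilent arrays, grouped by sample title. Agilent Feature Extraction 10.7.3.1 quantified the spots, per the file headers, and the deposited scanner files hold spot intensity on a linear scale, background-subtracted with a floor on low values. The deposited series matrix holds log2 values, each array of which matched its log2 scanner intensity up to a constant shift, with 397 missing values. Its column medians were 4.32, 4.445 and 4.522 in KO replicates 1 to 3 and 4.411, 4.171 and 4.701 in WT replicates 1 to 3. Its genes are not centred, its values run in the same direction as the scanner signal, and how the constants were chosen is not known here.

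From the processed intensity, log2 values were taken, each array's 75th percentile over non-control spots was subtracted, control and outlier-marked spots were left out, and spots of a probe were averaged. No non-control spot was saturated. Between 20953 and 28752 probes per array were well above background, and the number of arrays limits the precision. Probes well above background on at least 3 arrays were kept. Symbols came from a RefSeq table of GRCm38.p6 by unversioned accession (26762 of 55681 probes matched). KO minus WT was fitted with limma 3.58.1 in R 4.3.3 (lmFit, eBayes, two-sided, Benjamini-Hochberg over all kept probes, threshold 0.05), a script tested on simulated data. Intervals are limma's 95% intervals. For counts per gene, the kept probe of highest mean level stood for the gene. Motifs were searched in RefSeq promoter windows. All genes listed were named as members; from each related list at most 4 genes, those of lowest p. The members and lists were chosen with earlier results of these data known. The files name probes by accession and give no symbol.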

Additional observations from a re-analysis of the deposited data

How the results depend on the processing

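Over all kept probes limma called 0 at an adjusted p below 0.05 (4861 at an unadjusted p below 0.05). It called 1 with normexp, 2 with the filter on all 6 arrays and 7 of 12297 genes with the mean over the probes of a gene, and from 0 to 13123 when each array was left out in turn, the highest without WT replicate 3. Among the 14 chaperone probes the count was 0 in the other alternatives and ran from 0 to 8 with each array left out, the 8 again without WT replicate 3, where the Hspa1a call is void for want of a WT array above background. The median difference over the 9 genes was -0.41 and ran from -0.80 to -0.02 with each array left out. It was 0.55 with WT replicates 1 and 2 left out together. In that setting Hsp90aa1 (0.60), Hsp90ab1 (0.52), Dnajb1 (0.47), Hspd1 (0.22) and Hspe1 (0.37) turned in sign, as follows from the order of the WT livers. With quantile normalization Dnajb1 (0.04) and Hspe1 (0.15) turned, and in the deposited matrix Hspa8 (-0.04). Hspa8 ran from -0.25 to 0.30 with each array left out, around its value of 0.02. Of 152 alternative values of single genes, 136 kept direction and side of the threshold and 11 turned in sign. Hspb1 and Hsph1 kept their direction in all alternatives run for them, from 0.37 to 0.94 and 0.39 to 1.0, and Hspa1a from 0.72 to 1.94 where a WT array was well above background. Same-numbered KO and WT samples did not deviate together (correlations -0.13, 0.01 and -0.04), so the numbers were not taken as pairs; with the replicate number as a block, limma called 0 probes and the median over the 9 genes was -0.41, and no call changed. Signal near background limits Hspa1a, which has no value with the filter on all 6 arrays.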
